A study of Mus musculus with 8 samples.

Results

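The epidermal growth factor (EGF) family was examined as 10 genes chosen by symbol, the ligands Egf, Areg, Ereg, Epgn, Hbegf, Tgfa and Btc and the receptors Egfr, Erbb2 and Erbb3. All 10 were found, with 1 entry each, among the 31228 genes of the deposited table. The ligands are made as membrane-bound precursors that are cut at the cell surface, and they then bind receptors on the same or neighbouring cells. Receptors pair on ligand binding, phosphorylate each other and start, among others, the Ras and ERK kinase chain. ErbB2 binds no known ligand and acts as a partner, and ErbB3 is nearly without kinase activity of its own. In ducts and other simple epithelia this signalling is known for its part in growth, survival and repair, and EGF is a usual supplement of epithelial organoid media.

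RNA was sequenced from 8 libraries of C57BL/6 mice, whose age and number of animals per library the labels do not state. They were 1 epithelium of the extrahepatic bile duct (BD), 1 epithelium of the pancreatic duct (PD), and 3 organoid cultures grown from each duct. The epithelia were dissected, digested with collagenase and lysed directly, whereas organoids, which are epithelial cultures in Matrigel, were taken after 3 to 4 passages. Per the labels' protocols the organoid medium held 50 ng/mL EGF and 100 ng/mL FGF10 together with R-spondin 1, Noggin, nicotinamide, N-acetylcysteine and B27, and Wnt3A medium and Y27632 (a kinase inhibitor) were left out once hollow organoids had formed, so that all 6 cultures were grown with added EGF and neither epithelium was. Nothing in the labels says that the 3 cultures of an organ came from separate animals, so p-values measure the spread between these libraries only, which may be technical. Values are FPKM (fragments per kb of exon, relative to library size), scaled between libraries, and each level named as scaled FPKM below is per length, so levels of different genes can be compared.

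The libraries differed in which cells they held. They contained between 12876500 and 20828200 implied reads. A list of 11 pan-epithelial genes (among them Epcam and Cdh1) summed to 522 scaled FPKM in BD epithelium and 120 in PD epithelium, against 1113 to 2066 in the organoids, and all 11 rose from epithelia to organoids in the fit described below. The acinar enzyme and factor list summed to 15185 and 30930 scaled FPKM in the BD and PD epithelium and to at most 8.55 in an organoid, with 5 of 9 genes at 0 in every organoid. Fibroblast (1301 and 1482), smooth muscle (1824 and 3442), endothelial (337 and 581) and leukocyte (68.3 and 59.3) lists were likewise present in both epithelia, and in no organoid did they exceed 2.54, 0.645, 0.0862 and 11.9. The intestinal list summed to 593 in BD epithelium and 24.4 in PD epithelium. In the organoids its sum of 51.01 to 106 was nearly all Vil1 (50.99 to 105), and each of the other 7 genes was at most 0.739. The proliferation list summed to 23.2 and 10.9 in the BD and PD epithelium and to 97.5 to 228 in the organoids, and 6 of its 6 genes rose; its part in the differences between culture and epithelium was not tested. In such bulk samples fewer cells of a type and less RNA per cell cannot be told apart.

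The ligand transcripts changed in make-up between epithelium and culture, and this share does not depend on scaling. Hbegf, the heparin-binding ligand, supplied 72.6% of the summed FPKM of the 7 ligands in BD epithelium and 87.5% in PD epithelium. In the 6 organoids its share lay between 19.5% and 31.3%, with a median of 27.2%. Areg, which encodes amphiregulin, supplied 14.9% in BD epithelium and 0.642% in PD epithelium, and between 37.1% and 51.1% in the organoids, with a median of 45.6%. For both ligands the organoids therefore lay wholly apart from the epithelia. Ereg (epiregulin) went from 1.83% and 0.966% in the epithelia to between 6.26% and 11.98%, and Btc (betacellulin) from 4.72% and 3.13% to between 8.07% and 10.4%. The share of Tgfa, which encodes transforming growth factor alpha, was 5.57% and 7.23% in the epithelia and 7.01% to 14.4% in the organoids, so its ranges overlapped. Egf and Epgn stayed marginal, each under 1% in every library, with Egf at 0.263% and 0.538% in the epithelia and at most 0.132% in an organoid. The summed ligand level was 122 and 80.6 scaled FPKM in the epithelia and 109 to 250.3 in the organoids.

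**Figure D1:**
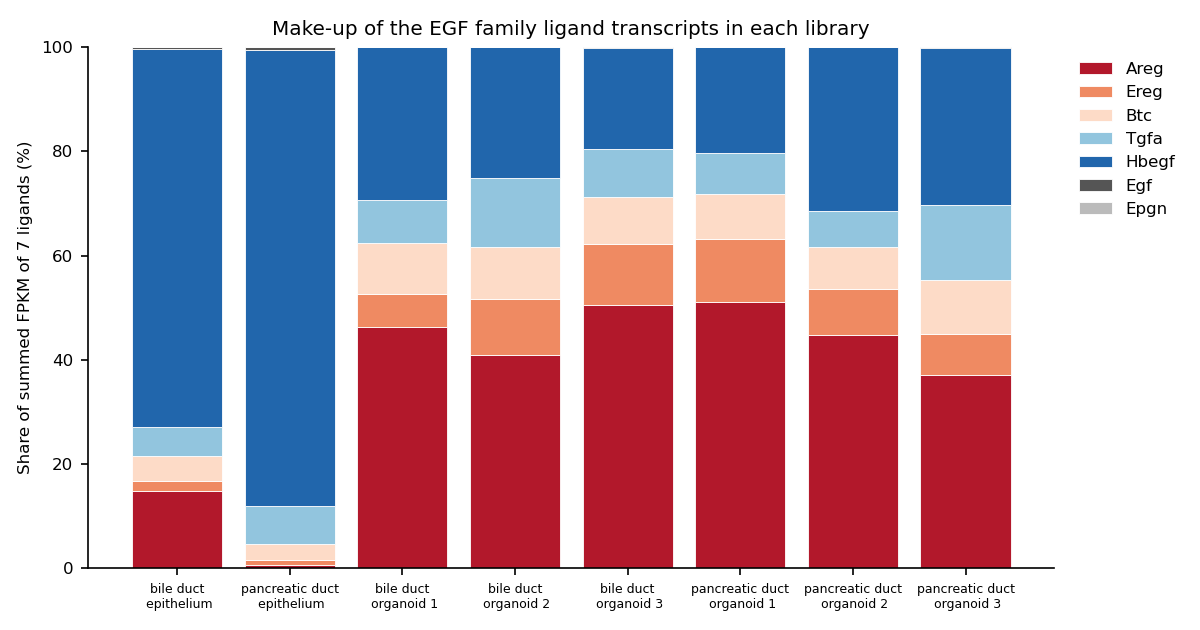
Share of each ligand (percent of the summed FPKM of the 7 ligands, y axis from 0) in each of the 8 libraries (x axis), with ligands stacked by colour. Hbegf takes 72.6% and 87.5% in the epithelia and at most 31.3% in an organoid, and Areg takes 37.1% to 51.1% in the organoids.

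Areg had the widest range of the 8 members tested. It lies on chromosome 5, 91139599 to 91148432 (mouse build GRCm38, plus strand). Areg was measured at 18.1 scaled FPKM in BD epithelium and 0.518 in PD epithelium, the latter from 9 reads (95% Poisson interval 0.237 to 0.983 scaled FPKM, counting error only). BD organoids 1, 2 and 3 had 104, 48.9 and 79.3 scaled FPKM, and PD organoids 1, 2 and 3 had 114, 112 and 40.4. Every organoid lay above both epithelia. The organoid mean was 4.26 times the epithelium in BD and 172 times in PD. As a mean of log2(scaled FPKM + 1), the difference was 1.97 ± 0.54 and 5.74 ± 0.84 (SD, n = 3 organoids each). The added 1 makes the PD value smaller than the ratio of 172. Between the epithelia, on the scale of log2(scaled FPKM + 1), Areg was the only member at least 2-fold apart, 3.66 higher in BD, where 9.01% of the 15331 genes measured were that much higher and 4.34% that much lower. The ratio of scaled FPKM without the added 1 was 35.02 for Areg, 2.87 for Ereg and 2.28 for Btc, so the last pair also passed 2-fold on that scale. The BD library was also the one with the intestinal and the fuller pan-epithelial list, and the part of those cells in the Areg level was not tested.

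Promoter sequence is shown for Areg, Btc and Tgfa, the 3 ligands that rose in culture and have an entry in the RefSeq table used (build GRCm38.p6). Of the 10 members, 7 had an entry there. Each line gives the 250 bases before the annotated start, 5′ to 3′ on the gene's strand, and capitals mark matches to the motifs searched on both strands, which were TGACGTCA (the cAMP response element), TGANTCA (the AP-1 type element) and CCCGCCCC (a GC box). The windows are chr5:91139349-91139598 (plus strand) for Areg, chr5:91402995-91403244 (minus strand) for Btc and chr6:86194972-86195221 (plus strand) for Tgfa.

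Areg: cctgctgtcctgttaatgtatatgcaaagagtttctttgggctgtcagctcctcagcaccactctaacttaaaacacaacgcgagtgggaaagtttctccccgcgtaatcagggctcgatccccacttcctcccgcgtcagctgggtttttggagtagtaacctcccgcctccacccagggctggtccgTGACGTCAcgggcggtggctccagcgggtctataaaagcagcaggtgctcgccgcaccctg
Btc: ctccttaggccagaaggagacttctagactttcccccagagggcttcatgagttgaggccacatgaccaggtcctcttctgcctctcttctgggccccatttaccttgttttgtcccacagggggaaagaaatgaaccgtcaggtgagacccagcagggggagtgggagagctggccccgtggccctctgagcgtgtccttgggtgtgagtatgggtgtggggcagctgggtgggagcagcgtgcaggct
Tgfa: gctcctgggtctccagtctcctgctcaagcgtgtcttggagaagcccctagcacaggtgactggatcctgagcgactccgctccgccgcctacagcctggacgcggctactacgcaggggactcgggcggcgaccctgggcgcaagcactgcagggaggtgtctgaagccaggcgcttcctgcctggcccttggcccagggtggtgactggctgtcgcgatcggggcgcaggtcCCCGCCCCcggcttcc

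Areg held TGACGTCA from base -61 to base -54 before its start, a motif present in 1.55% of all 32851 promoters of this table in the same window. Tgfa held CCCGCCCC from base -16 to base -9, which 14.97% of the promoters held. TGANTCA, found in 6.75% of the promoters, was not among the letters of these windows. These matches describe the sequence and were not tied to any binding measurement.

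Ereg, a ligand of Egfr and Erbb4 and a chromosome 5 neighbour of Areg (91074622 to 91093646, plus strand), had 2.23 scaled FPKM in BD epithelium and 0.779 in PD epithelium. Its organoid values were 14.0, 12.8 and 18.4 in BD organoids 1, 2 and 3. They were 26.7, 21.8 and 8.60 in PD organoids 1, 2 and 3. All 6 organoids were above both epithelia, by a log2 difference of 2.30 ± 0.26 in BD and 3.36 ± 0.81 in PD (SD, n = 3 each). In the GENCODE M21 annotation 141 of the 4128 exon bases of Ereg overlap an antisense gene, and without a stated strand setting reads from that stretch cannot be told apart.

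Btc (chromosome 5, 91357261 to 91402994, minus strand), which binds Egfr and Erbb4, had 5.75 scaled FPKM in BD epithelium and 2.52 in PD epithelium. BD organoids had 21.8, 11.99 and 14.2 and PD organoids 19.2, 20.2 and 11.4 scaled FPKM, in replicate order. Tgfa (chromosome 6, 86195223 to 86275719, plus strand), an Egfr ligand, had 6.78 and 5.83 scaled FPKM in the BD and PD epithelium. It was the steadiest ligand in culture, with 18.4, 15.8 and 14.4 in BD and 17.8, 17.5 and 15.7 in PD organoids. Its highest organoid value was 1.28 times its lowest, against a median of 1.58 over the 12094 genes tested between organoids. For both Btc and Tgfa every organoid was above both epithelia.

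Hbegf, which binds Egfr and Erbb4, was the most abundant member in both epithelia, at 88.4 scaled FPKM in BD and 70.6 in PD. Organoids had 65.5, 29.9 and 30.7 scaled FPKM in BD and 45.1, 78.4 and 32.8 in PD, in replicate order. Of the 6 organoids, 5 were below both epithelia, and PD organoid 2 lay between them. The log2 difference was -1.15 ± 0.63 in BD and -0.52 ± 0.62 in PD (SD, n = 3 each), so that only the first reached 2-fold.

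Egf itself, the ligand added to the medium, was hardly transcribed. It had 0.320 scaled FPKM (43 reads) in BD epithelium, 0.434 (70 reads) in PD epithelium and between 0.0403 and 0.144 (8 to 36 reads) in the organoids. All 6 organoids were below both epithelia, but Egf did not reach the minimum of 1 FPKM and entered only the fit without a filter. There Egf fell by 0.37 (SE 0.049, limma adjusted p = 0.00109), where 23.0% of 29890 genes fell. Of its 11275 exon bases, 607 and 500 overlap antisense genes. Epgn, which encodes epigen, had at most 4 reads in any library and 0 in PD epithelium, where 3 reads, the one-sided 95% limit that a count of 0 allows, would be 0.116 scaled FPKM. No difference in Epgn was detectable at this depth.

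**Figure D2:**
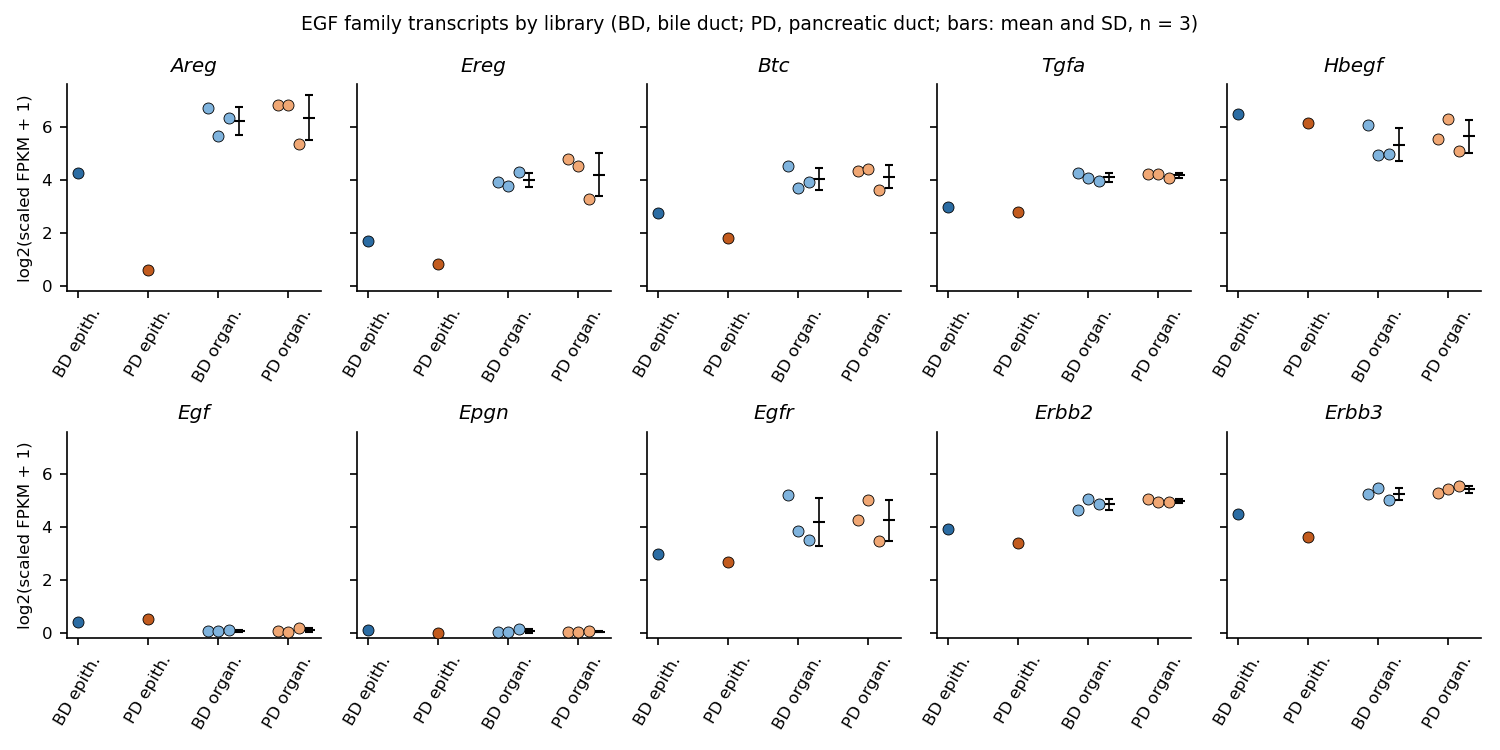
Level of each of the 10 members as log2(scaled FPKM + 1) (y axis) in the 4 groups (x axis, BD bile duct and PD pancreatic duct), with 1 point per library and, for organoids, the mean and SD (n = 3). Areg spans 0.518 to 114 scaled FPKM, Egf and Epgn stay under 1 throughout, and of the other 8 members Tgfa, Erbb2 and Erbb3 vary least among the organoids.

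Among the receptors, Erbb3 was the most abundant in every library. Erbb3 (chromosome 10, 128567523 to 128589652, minus strand) had 21.7 scaled FPKM in BD epithelium and 11.2 in PD epithelium. Organoids had 37.3, 43.1 and 31.5 in BD and 37.8, 42.6 and 46.0 in PD, all above both epithelia. Erbb2 (chromosome 11, 98412470 to 98437716, plus strand) reached 14.3 scaled FPKM in the BD library and 9.60 in the PD library before culture. It had 24.0, 32.4 and 27.95 in BD organoids and 32.4, 29.9 and 29.8 in PD organoids, again all above both epithelia. From epithelium to organoid the log2 difference was 0.75 ± 0.22 for Erbb3 and 0.92 ± 0.21 for Erbb2 in BD, under the 2-fold mark. In PD it was 1.82 ± 0.14 and 1.58 ± 0.07 (SD, n = 3 each).

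Egfr (chromosome 11, 16752203 to 16918158, plus strand), the receptor for EGF, had 6.82 scaled FPKM in BD epithelium and 5.47 in PD epithelium. Organoid values were 36.5, 13.3 and 10.6 in BD and 18.2, 31.5 and 10.2 in PD, in replicate order. All lay above both epithelia, but the highest was 3.58 times the lowest, the widest such ratio among the 8 members tested. Within the summed FPKM of the 3 receptors, Egfr took 15.9% and 20.8% in the epithelia and 11.9% to 37.3% in the organoids. The share of Erbb3 was 50.6% and 42.7% in the epithelia and 38.1% to 53.5% in the organoids, and that of Erbb2 33.4% and 36.5% against 24.5% to 39.9%. The shares of epithelia and organoids thus overlapped for each receptor. Among the ligands those of Areg, Ereg, Btc, Hbegf and Egf did not. Such shares have no counterpart over all genes. In level, all 6 organoids lay above both epithelia for 35.1% of all genes tested and below both for 28.8%.

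In the organoids the order of mean levels was Areg (83.05 ± 32.3 scaled FPKM), Hbegf (47.1 ± 20.5), Erbb3 (39.7 ± 5.21), Erbb2 (29.4 ± 3.15), Egfr (20.05 ± 11.3), Ereg (17.05 ± 6.58), Tgfa (16.6 ± 1.54) and Btc (16.5 ± 4.49; SD, n = 6 organoids), followed by Egf and Epgn. The ranges of each neighbouring pair among these 8 overlapped, although Areg was above Hbegf and Erbb3 above Erbb2 in 6 of 6 organoids. In BD epithelium the order began with Hbegf, Erbb3, Areg and Erbb2, and in PD epithelium with Hbegf, Erbb3, Erbb2 and Tgfa, where Areg was in place 8.

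The average difference between culture and epithelium over both organs was tested with limma on log2(scaled FPKM + 1) over all 8 libraries, with the organ as a covariate. A level of at least 1 FPKM in at least 2 libraries was reached by 14968 genes and by 8 of the 10 members, Egf and Epgn being too low. Areg, Ereg, Btc, Tgfa, Erbb2 and Erbb3 rose, 6 of the 8 tested, where 59.5% of all genes tested changed, 32.1% rising and 27.4% falling, at a Benjamini-Hochberg adjusted p under 0.05. Areg rose by 3.86 (SE 0.84, limma adjusted p = 0.00634) and Ereg by 2.83 (SE 0.43, adjusted p = 0.00118) on the log2 scale. Btc rose by 1.80 (SE 0.34, limma adjusted p = 0.00303) and Tgfa by 1.27 (SE 0.12, adjusted p = 0.000134). Erbb2 rose by 1.25 (SE 0.17, limma adjusted p = 0.000748) and Erbb3 by 1.28 (SE 0.24, adjusted p = 0.00334). Egfr did not pass, with a difference of 1.40 (SE 0.53, limma adjusted p = 0.0555), nor did Hbegf, with -0.84 (SE 0.41, adjusted p = 0.120). The median over the 8 members was 1.34, against 0.0998 over all genes tested. All 6 organoids exceeded both epithelia for 7 members (Areg, Ereg, Btc, Tgfa, Egfr, Erbb2 and Erbb3), as for 35.1% of all genes tested, and all 6 were below both for none of the 8, as for 28.8% of genes.

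These directions depend on how libraries are scaled. With libraries scaled to the 11 pan-epithelial genes, Areg was still higher in organoids by 2.19 (limma adjusted p = 0.00794) and Ereg by 1.17 (adjusted p = 0.0171). Hbegf was then lower by -3.07 (limma adjusted p = 4.84e-05). Tgfa turned to -0.81 (limma adjusted p = 0.0423), Erbb2 to -0.90 (adjusted p = 0.0209) and Erbb3 to -0.89 (adjusted p = 0.0166). Btc turned to -0.17 and Egfr to -0.68, neither past the threshold (limma adjusted p = 0.624 and adjusted p = 0.207). By organ, the Areg difference was then 0.53 in BD, under 2-fold, and 3.84 in PD, and that of Ereg 1.09 and 1.25. Like the main scaling, this one is 1 offset per library, and which is the better reference was not tested. Scaling to pan-epithelial genes lowered organoids against epithelium by 1.48 in BD and 3.03 in PD (log2 of scaled FPKM). The size of a member's first difference therefore largely sets whether it turned. Under it 1.58% of 16144 genes rose and 84.4% fell. Without the PD epithelium the Areg difference was 1.98 (limma adjusted p = 0.0604) and 5 members passed, in a fit that takes its spread from the organoids alone, assumes that the lone epithelium varies like them and called 4301 genes in place of 8902. Without PD organoid 2 Hbegf passed the test and fell by 1.013 (limma adjusted p = 0.0434).

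**Figure D3:**
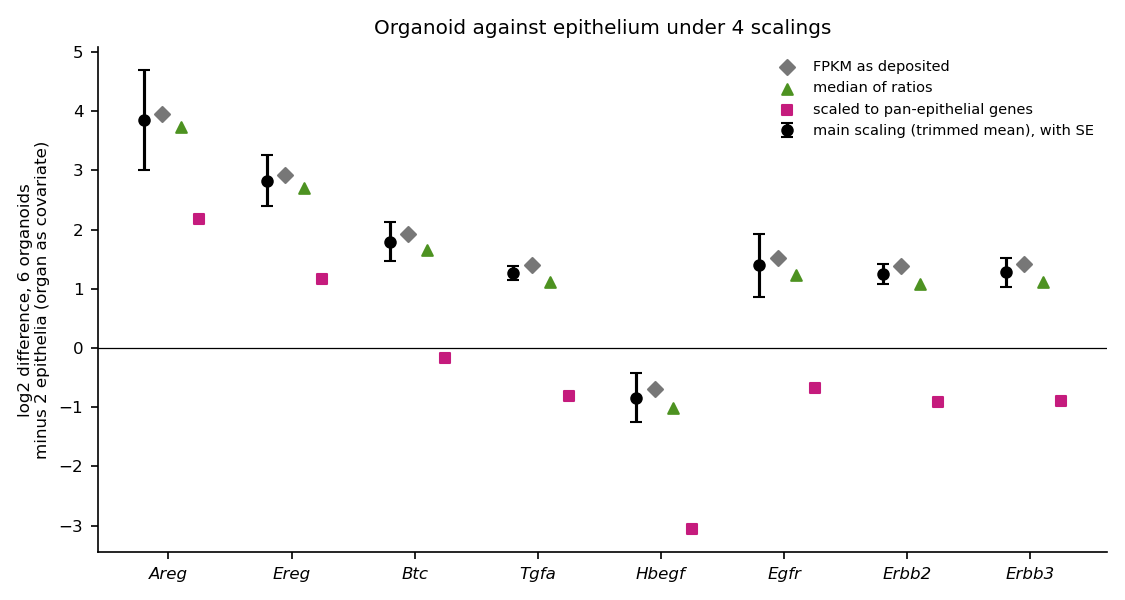
Log2 difference between 6 organoids and 2 epithelia with organ as covariate (y axis) for the 8 tested members (x axis) under 4 scalings, with the SE for the trimmed-mean scaling. Areg and Ereg are above 0 and Hbegf below 0 under each scaling, whereas Btc, Tgfa, Egfr, Erbb2 and Erbb3 turn below 0 when scaled to pan-epithelial genes.

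Taken organ by organ, with a single epithelium each and no test made, 5 members were at least 2-fold higher in BD organoids with all 3 cultures on the same side (Areg, Ereg, Btc, Tgfa and Egfr), where 39.3% of all 15333 genes measured were apart and 14.6% higher. Without BD organoid 1 Egfr was at 0.72 (log2), under 2-fold, and Erbb2 at 1.02, past it. With FPKM as deposited Erbb2 was at 1.06, and with a median of ratios Tgfa was at 0.988. In PD organoids 7 were, the same 5 with Erbb2 and Erbb3, where 41.2% of 15081 genes were apart and 17.7% higher. Of the 8 members measured, Hbegf was the only one at least 2-fold lower, in BD, where 24.7% of genes were, against 23.4% in PD. Hbegf was at -0.96 without BD organoid 2 and -0.98 without BD organoid 3, both under 2-fold. Egf, under the minimum of 1 FPKM, was not counted here. Its organoid mean was 0.180 times the epithelium in BD and 0.177 times in PD. Btc changed by 1.29 ± 0.42 in BD and 2.31 ± 0.43 in PD, Tgfa by 1.14 ± 0.17 and 1.40 ± 0.09, and Egfr by 1.23 ± 0.90 and 1.56 ± 0.77 (log2, SD, n = 3 each). For 7 of these 8 members the level was higher in BD than in PD epithelium by between 0.19 and 0.94 on the log2 scale, and for Areg by 3.66. Scaled to pan-epithelial genes, Areg was still higher in BD epithelium by 3.19, whereas the other 7 turned below 0. Between the organoid groups the Areg difference was -0.12; whether the organ gap changed with culture was not tested.

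**Figure D4:**
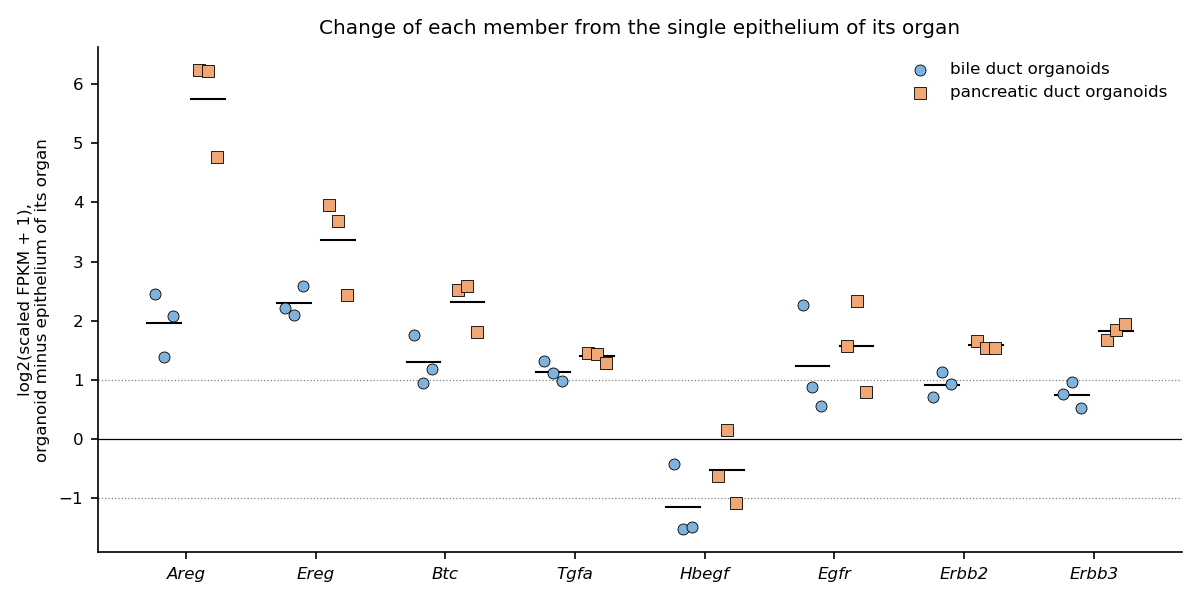
Difference in log2(scaled FPKM + 1) of each organoid from the single epithelium of its organ (y axis) for 8 members (x axis), with 1 point per culture, a bar for the mean of 3 and dotted lines at 2-fold. Areg lies at 1.97 on average in BD and 5.74 in PD, and Hbegf is the only member with means below 0; scaling to pan-epithelial genes turns Btc, Tgfa, Egfr, Erbb2 and Erbb3 below 0.

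Between the organoid groups no member passed the test. Of 12094 genes tested with limma, 0 had an adjusted p under 0.05 (0% called) and 311 (2.57%) an unadjusted p under 0.05. The latter count was 1024 without BD organoid 1, 156 without BD organoid 2 and 188 without BD organoid 3. With limma voom on recovered reads 1 gene passed, and without PD organoid 3 limma called 11; no member was called under any alternative, the lowest limma adjusted p being 0.594. BD minus PD log2 differences of the 8 members ran from -0.31 for Hbegf (SE 0.42) to -0.06 for Egfr (SE 0.56), and every member had a limma adjusted p of 1.00. Exact two-sided permutation p-values over the 6 organoids ran from 0.3 for Erbb3 to 1.0, and 3 cultures against 3 cannot go below 0.1.

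The cultures also fell into sets that cut across the organs. BD organoid 1 and PD organoids 1 and 2 had 0 reads in the 4 Y-linked genes examined (Ddx3y, Eif2s3y, Kdm5d and Uty), whereas BD organoids 2 and 3 and PD organoid 3 had 9, 14 and 9. Some marker lists parted the same sets, among them the acinar, endocrine and proliferation lists, while the intestinal, smooth muscle, endothelial and leukocyte sums overlapped. Pan-epithelial sums were 1399.7 to 2066 against 1113 to 1197 scaled FPKM, duct sums 9069.7 to 10657 against 4677 to 6415, fibroblast sums 0.149 to 0.350 against 2.15 to 2.54 and hepatocyte sums 8.65 to 15.6 against 34.8 to 139. The first 3 also had lower Xist (20.3 to 23.6 against 76.4 to 84.3 scaled FPKM) and lower Mki67, a proliferation marker (18.4 to 31.2 against 53.4 to 63.5). For Areg, Btc, Tgfa, Hbegf and Egfr, 5 of the 8 members tested, the 3 libraries without Y-linked reads were all above the 3 with them. That was so for 18.9% of all genes tested, and the reverse for 16.4%, while the organoid groups by organ did not overlap for 6.69%. Areg, for example, had 104, 114 and 112 scaled FPKM in the first set and 48.9, 79.3 and 40.4 in the second. Ereg, Erbb2 and Erbb3 overlapped between the sets. The labels give no batch, the sets hold 2 cultures of an organ and 1 of the other, which is too few for a comparison within each, and the part of proliferation, cell content or origin in these levels was not tested. With a block for this division the organ difference turned from negative to positive for Areg (0.24), Ereg (0.01), Hbegf (0.01), Tgfa (0.0015), Btc (0.16) and Egfr (0.40), and limma still called 0 genes.

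Genes around the receptors were read from lists. Of 5 further family genes none reached the test. Erbb4, the remaining receptor, had 0.190 and 0.453 scaled FPKM in BD and PD epithelium and was listed at 0 in every organoid, and Nrg1, a neuregulin that binds Erbb3 and Erbb4, had 1.38 and 0.243 in the epithelia and 0.182 to 0.981 in organoids. Of 7 genes of ligand release, 4 rose and 0 fell, with a median of 0.55 on the log2 scale. The widest rises there were Frmd8 by 0.94 (SE 0.27) and Rhbdf2 by 0.83 (SE 0.23), whose products stabilise and transport the sheddase Adam17. Of 16 genes of the receptor signal chain, 8 rose and 2 fell, with a median of 0.37. Map2k2, which encodes an ERK-activating kinase, rose by 1.49 (SE 0.15) and Hras by 1.31 (SE 0.16), while the adaptor Gab1 fell by 0.85 (SE 0.12).

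Of 16 feedback inhibitors, 5 rose, 3 fell and 8 did not pass, with a median of 0.20. Dusp4, a phosphatase of ERK, rose by 2.98 (SE 0.37), from 4.01 and 1.81 scaled FPKM in the epithelia to 21 to 44.9 in the organoids. Cblc, a ubiquitin ligase for activated receptors, rose by 2.07 (SE 0.42). Lrig3 fell by 1.73 (SE 0.16) and Spry1 by 1.19 (SE 0.22). Of 11 ERK-responsive transcripts, 7 rose and 2 fell, with a median of 1.43. Ccnd1, the D-type cyclin, rose by 3.16 (SE 0.21), from 21.8 and 18.0 to between 163 and 265 scaled FPKM. Etv4, an ETS transcription factor, rose by 2.78 (SE 0.22). The immediate early genes Fos and Egr1 were the 2 that fell. Fos fell by 4.09 (SE 0.36) and Egr1 fell by 3.13 (SE 0.34). Fos had 871 and 1269.8 scaled FPKM in the dissected epithelia and at most 102 in an organoid. Scaled to pan-epithelial genes, most of these directions turned. Then 0 of 7 genes of ligand release rose and 7 fell, 0 of 16 of the signal chain rose and 14 fell, 1 of 16 feedback inhibitors (Dusp4) rose and 13 fell, and 2 of 11 ERK-responsive transcripts (Ccnd1 and Etv4) rose and 4 fell, beside the 1.58% rising and 84.4% falling among all genes under that scaling. The counts first given stand beside 32.1% rising and 27.4% falling among all genes tested, and beside the loss of the non-epithelial marker lists in the organoids, whose part was not tested.

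**Figure D5:**
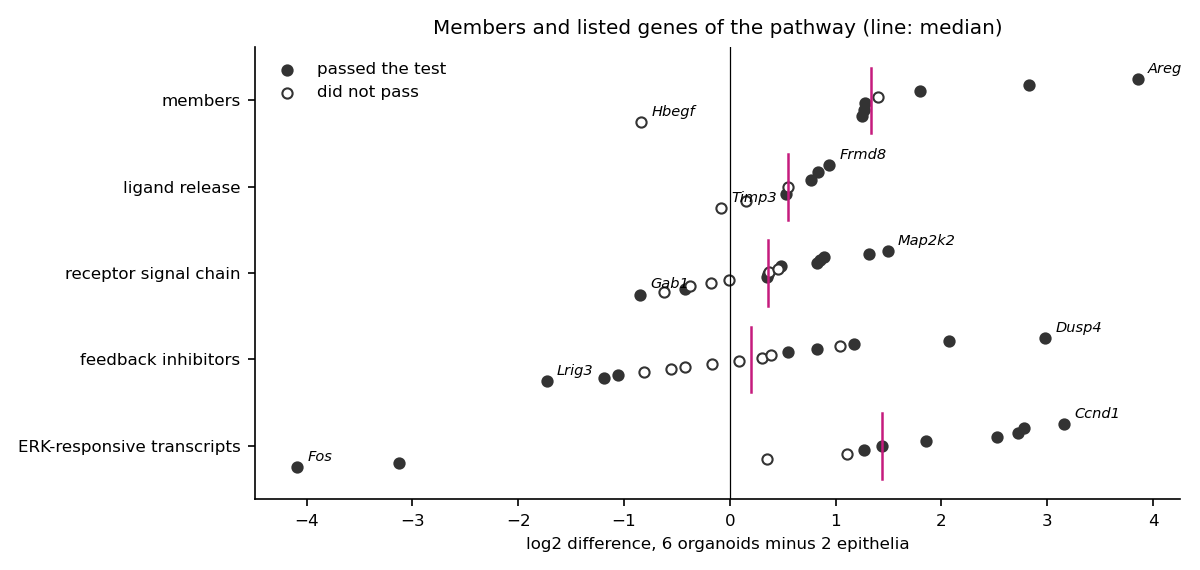
Log2 difference between 6 organoids and 2 epithelia (x axis) for the 8 tested members and the tested genes of 4 lists (y axis), filled where the limma adjusted p was under 0.05, with a line at each median and the outermost genes named. Members have a median of 1.34 and ERK-responsive transcripts one of 1.43, with Fos and Egr1 far to the left; under scaling to pan-epithelial genes Btc, Tgfa, Egfr, Erbb2 and Erbb3 and all 4 list medians lie below 0.

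Profiles most like the leading ligand and receptor were sought among the 14968 genes, as the smallest root-mean-square difference between profiles centred on their own mean over the 8 libraries. For Areg these were Serpinb5 (0.44 on the log2 scale), Car2 (0.56) and Tns4 (0.57). Serpinb5 had 13.1 and 0.992 scaled FPKM in BD and PD epithelium and 28.7 to 67.0 in the organoids. For Erbb3 they included Idh1 (0.11) and Rpl10-ps3 (0.11), the latter with a symbol of a pseudogene that may share reads with its parent gene. Idh1, a cytosolic isocitrate dehydrogenase, was at 51.3 (BD) and 32.4 (PD) scaled FPKM before culture and at 87.4 to 135 in the organoids. The likeness is a description over 8 libraries that include both epithelia.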

How the data were processed

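RNA was measured by sequencing of polyadenylated RNA (NEBNext Ultra libraries, per the labels' protocols). The authors deposited 1 table of FPKM values, 31228 genes by 8 libraries, and no per-sample column was left aside (0). Its header names no unit, which was read from the values. Bowtie2 2.2.3, HISAT2 2.1.0, TopHat2 and HTSeq 0.6.0 are listed without a role in the submitters' processing notes, and the strand setting is not given in the sources used here. Multiplied by exon length in GENCODE M21, 90.4% of genes gave whole multiples of 1 step in all libraries (tolerance 0.05 read), which yields the read numbers quoted. Intervals on them cover counting error only.

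FPKM were scaled by a trimmed mean of log ratios (30% of ratios and 5% of levels trimmed at each side). Over 8 libraries this lowered organoids against epithelium by 0.15 in bile duct and 0.14 in pancreatic duct (log2). A pseudocount of 1 was added before log2, which understates changes of low genes. limma 3.58.1 in R 4.3.3 (moderated test with intensity trend, Benjamini-Hochberg over all genes tested, threshold 0.05) compared the organoid groups (at least 1 FPKM in 3 organoids) and organoids with epithelia (organ as covariate, at least 1 FPKM in 2 libraries). Comparisons with a single epithelium used a log2 difference of 1 and no test, on genes with at least 1 FPKM on either side. Python 3.11.15 drew figures and read promoters. The fits were tested on simulated data with 200 changed genes. Between organoid groups 53% of 2-fold and 75% of 4-fold changes were recovered, with 5 false calls among 133. For organoids against epithelia 49.0% and 90.6% were recovered, with 10 false calls among 148.

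The members, gene lists and rules were chosen with earlier results of these data known. Apart from members, the genes named are the 2 widest changes in each direction among called genes of a list and the 3 nearest profiles, of which some are not reported here; Erbb4, Nrg1, Xist, Mki67 and the Y-linked genes were named after their values were seen. The fits were repeated with libraries scaled to pan-epithelial genes; only the count of the pathway lists under that scaling was added after seeing the data. Same-numbered organoids correlated at -0.10, -0.44 and 0.48 in their deviations from group means, so numbers were not treated as pairs.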

Additional observations from a re-analysis of the deposited data

How the results depend on the processing

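Depth limits Egf, Epgn and, with 9 reads in PD epithelium, the size of the Areg difference in PD, and the single epithelium per organ limits every comparison with culture. Directions of the members between organoids and epithelia were kept under each alternative except scaling to pan-epithelial genes, which gave -0.81 for Tgfa, -0.17 for Btc, -0.68 for Egfr, -0.90 for Erbb2 and -0.89 for Erbb3. Both scalings apply 1 offset per library, and which is the better reference was not tested. Against the main scaling, that to pan-epithelial genes shifted organoids against epithelium by -1.48 in BD and -3.03 in PD. Taken by organ, that scaling gave -0.21, -0.045, -0.12, -0.50 and -0.69 for Tgfa, Btc, Egfr, Erbb2 and Erbb3 in BD, and -1.41, -0.30, -1.24, -1.31 and -1.10 for Tgfa, Btc, Egfr, Erbb2 and Erbb3 in PD. Called members numbered 5 to 7 over 16 alternatives (with pan-epithelial scaling 6, of which Areg and Ereg higher and Hbegf, Tgfa, Erbb2 and Erbb3 lower; without a filter 7, with Egf lower). Egfr passed the threshold in 6 of these, with limma adjusted p-values down to 0.0310, and its adjusted p over all of them reached 0.260. Over the same alternatives the limma adjusted p of Areg ran from 0.00216 to 0.0604 and that of Hbegf from 4.84e-05 to 0.520.

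Of all genes, organoids against epithelia called 8902, 54.0% of them higher. With a minimum of 10 FPKM the count was 4715, with pan-epithelial scaling 13885 (1.84% higher), and leaving out 1 library gave 4301 to 9244 (4758 without the BD and 4301 without the PD epithelium). FPKM as deposited made 60.04% and a median of ratios 44.8% of the calls higher. Genes 2-fold apart numbered 6025 in BD, 6209 in PD and 2046 between epithelia. They became 2970, 3204 and 871 with a minimum of 10 FPKM, and 10316, 17459 and 15209 with pan-epithelial scaling. Between organoid groups 0 to 11 genes were called when 1 culture was left out (11 without PD organoid 3), 1 with voom on recovered reads, and 0 with the replicate block (295 genes at an unadjusted p under 0.05) or with a block for Y-linked reads (609 genes), which was chosen after seeing the data and turned 6 members (Areg 0.24, Ereg 0.012, Hbegf 0.012, Tgfa 0.0015, Btc 0.16, Egfr 0.40). When 1 culture was left out, the organ difference ran from -0.61 to 0.17 for Areg, -0.66 to 0.11 for Ereg, -0.66 to 0.045 for Hbegf, -0.15 to 0.0061 for Tgfa, -0.33 to 0.10 for Btc and -0.56 to 0.35 for Egfr. The replicate block changed no call of a member.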

Other observations

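Epgn, Ereg, Areg and Btc lie side by side on chromosome 5 within 376 kb. Between Epgn and Ereg (39.4 kb) and between Ereg and Areg (46.0 kb) the deposited table holds 0 genes lying wholly in the gap, and between Areg and Btc (209 kb) it holds 1, the long noncoding gene Gm19619, at no more than 0.0710 scaled FPKM in any library. Epgn had at most 4 reads in any library, whereas Ereg and Areg, downstream of it on the same strand, reached 26.7 and 114 scaled FPKM in organoids. Mthfd2l, a folate pathway enzyme gene upstream of Epgn, had 1.40 and 1.30 scaled FPKM in BD and PD epithelium and 1.98 to 3.26 in organoids. The antisense gene Gm42532 at the start of Ereg had 3.49 scaled FPKM in BD epithelium, 0.171 in PD epithelium and 0.553 to 1.81 in organoids. The antisense gene had its highest value in the library of BD epithelium, where Ereg was 2.23. Gm42532 has only 408 exon bases, and the counting error of its values was not worked out. Of these bases 141 overlap Ereg, and reads from that stretch cannot be told apart.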
